A study of Mus musculus with 30 samples.

Results

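The genes described here are 10 members of the p53 pathway: Trp53, the gene of the p53 protein, its inhibitors Mdm2 and Mdm4, and the p53 targets Cdkn1a, Ccng1, Bax, Bbc3, Trp53inp1, Zmat3 and Perp. Members were the probe sets annotated to exactly 1 of these symbols, a probe set being a group of short oligonucleotides that measures one stretch of a transcript. Of the 45101 probe sets on the array, 17 met this rule, and they covered 8 of the 10 genes, out of 18193 genes with such a probe set. No probe set of the annotation used here carried Trp53 or Bax as its only symbol, so both genes were not analysed here. Mdm4 had 4 probe sets, Mdm2 and Ccng1 3 each, Cdkn1a and Trp53inp1 2 each, and Bbc3, Zmat3 and Perp 1 each.

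The study compared R1 mouse embryonic stem cells (ESC), an established line kept undifferentiated with the cytokine LIF, with embryoid bodies (EB), the aggregates these cells form on differentiation, after 5 days without LIF. Both states received 150 ug/ml cycloheximide for 15 min, which halts ribosomes on mRNA, before harvest. Cytoplasmic lysate was spread over a sucrose gradient, fractions were combined into 4 pools, and 2.5 ug RNA from every pool, or from lysate that was not fractionated (total RNA), went to the arrays. Each state had 3 biological replicates, called cultures here, which gave 30 arrays in 10 groups of 3. All samples came from a single line, embryoid bodies mix cell types, and the labels do not state at which end of the gradient pool 1 lies, so pools are named by number only.

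p53 is a transcription factor that is held at a low level by the ubiquitin ligase Mdm2 and its partner Mdm4, and that accumulates when DNA damage or other stress releases it from them. It then binds response elements near its targets, among them genes that halt the cell cycle, genes that promote apoptosis, and Mdm2 itself, which closes a feedback loop. In mouse embryonic stem cells p53 is abundant and is known for its part in differentiation and in the removal of damaged cells.

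Array-wide differences between the states stood beside every result below. Mean linear signal in total RNA was 129 ± 0.751 in ESC and 296 ± 30.3 in EB (SD, n = 3 each; exact two-sided permutation p = 0.1, the smallest that 3 against 3 allow). The log2 ratio of the 3' to the 5' probe set of Actb rises as the 5' part of transcripts is represented less. It averaged 3.1 ± 0.287 for ESC against 2.26 ± 0.224 for EB (total RNA). In each of the 4 pools it was also lower in EB (exact permutation p = 0.1 each). Within a state it differed between pools too: pools 1 to 4 averaged 4.06, 4.1, 2.69 and 2.3 in ESC and 2.55, 1.66, 1.1 and 0.743 in EB. The EB pool 2 array of culture 3 stood apart: its hybridisation controls, at 13.91, were the highest of the 30 arrays, and the lowest correlation between 2 arrays of its group was 0.9, against 0.957 to 0.983 in the other groups. All 8 pluripotency markers passed the filter on low values, and their deposited linear signals in total RNA summed to 27900 to 30800 (ESC) and 51200 to 65800 (EB). All sums here are of deposited signals, whose array mean also differed between the states. Changes of single markers are log2 differences relative to all probe sets, a scale set out below. Within that list Klf4 fell in EB (-1.69, or -0.51 with deposited values) and Nanog rose (0.53, or 1.64). The summed signal of 8 endoderm markers, of which Foxa2, Afp and Apoa1 did not pass the filter, was 67.3 to 138 in ESC and 702 to 809 in EB. Of 8 fibroblast or feeder markers, Col1a1, Col3a1, Lum, Dcn and Postn did not pass it, and the sum was 123 to 169 in ESC and 215 to 233 in EB. Other lists moved as well. Relative to all probe sets, 3 of 5 neural markers fell (Sox1 -1.22, Neurod1 -1.18, Nes -0.6) and Eomes of 5 mesoderm markers rose (0.73). Tfap2c rose (1.16) among 4 trophoblast markers, of which Cdx2 and Elf5 did not pass the filter. With deposited values Sox1 stood at -0.66, Neurod1 at -0.17, Nes at 0.25, Eomes at 1.8 and Tfap2c at 2.42. The summed signals in ESC and EB were 294 to 361 and 476 to 664 (neural), 88 to 119 and 360 to 387 (mesoderm), and 238 to 292 and 1260 to 1460 (trophoblast). The part of RNA quality and of these cell types in the results was not tested.

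Because the median of all probe sets differed between the states on the deposited scale (by 0.85 in total RNA and 0.05 to 0.88 in the pools), changes are given relative to all probe sets: 32 was added to each linear signal, log2 was taken, and arrays were quantile-normalized, so that 0 means a change equal to that of the array as a whole. A probe set is called when limma's adjusted p was under 0.05 over the 26462 probe sets that passed the filter, and 16 of the 17 member probe sets did so. The exception, Mdm2 1457929_at, lay at the lowest value of its array on 17 of 24 pool arrays. Each gene is led by its probe set of highest mean, and levels are never compared between probe sets.

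In total RNA, Ccng1, a cyclin whose product recruits a phosphatase to Mdm2, and Trp53inp1, a nuclear protein that promotes p53-dependent apoptosis and autophagy, rose in EB relative to all probe sets. The lead probe sets were 1.84-fold and 1.65-fold higher. Of the 16 member probe sets tested, 4 were called higher and none lower, against 7.28% of all probe sets called, 3.86% of them higher and 3.42% lower. The 4 calls came from 2 genes, 3 of them from Ccng1. With a stricter filter (60% dropped) or limma's trend, 2 members, Bbc3 and Zmat3, were also called lower. The median member difference was 0.08, against -0.01 over all probe sets. In bulk RNA, fewer cells of a type and less RNA per cell cannot be told apart.

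The lead Mdm2 probe set (1423605_a_at) read 9.3, 9.09 and 8.99 in the 3 ESC cultures and 9.04, 9.21 and 9.05 in the EB cultures, on the log2(signal + 32) scale relative to all probe sets. The states overlapped, with a difference of -0.03 ± 0.14 (SE; limma adjusted p = 0.928). The other Mdm2 probe set tested, 1427718_a_at, gave 0.09 ± 0.14. Mdm4, which binds p53 and blocks its transactivation domain, read 8.96, 9.03 and 8.76 in ESC and 8.69, 8.91 and 8.76 in EB. These too overlapped, and the difference was -0.13 ± 0.14 (limma adjusted p = 0.583), while the other 3 Mdm4 probe sets ranged from -0.15 to 0.17 and none was called.

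Cdkn1a encodes p21, the cyclin-dependent kinase inhibitor through which p53 arrests the cell cycle. Its promoter is shown because it was the only one among the member promoters read here that held the core of a p53 response element. RefSeq promoter windows on GRCm38.p6, 250 bases before to 50 after a start, were matched for 5 of the 8 genes with probe sets (Mdm2, Mdm4, Cdkn1a, Ccng1 and Bbc3), 9 windows in all. The core searched was CATG, then any 6 bases, then CATG again, which reads the same on both strands. Of 32851 windows of this length, 0.712% held it, and 0.0731% held the longer p53 response element consensus. That consensus is a motif followed by a further copy of it, with a gap allowed between them. The Cdkn1a window also held this consensus. Its match there begins before the 20-base site marked below and takes in only part of that site. The marked site shows the core and does not by itself meet the longer consensus. The 250 bases before the upstream of 2 Cdkn1a starts, at chr17:29090729-29090978 on the plus strand, follow with the 20-base site in capitals, and then the site alone (chr17:29090928-29090947) with the core bases in capitals.
Cdkn1a promoter: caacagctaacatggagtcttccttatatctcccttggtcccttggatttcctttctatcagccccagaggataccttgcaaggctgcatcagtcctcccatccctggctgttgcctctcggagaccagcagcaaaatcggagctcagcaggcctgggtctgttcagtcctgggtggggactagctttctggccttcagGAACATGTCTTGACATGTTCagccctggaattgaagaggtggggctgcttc
Cdkn1a site: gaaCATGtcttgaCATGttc
The site ended 31 bases before this start and 2821 bases before the other Cdkn1a start, whose window held no match. A match describes letters only, and none was found in these windows of Mdm2, Mdm4, Ccng1 or Bbc3, which says nothing about sites elsewhere.

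In total RNA the lead Cdkn1a probe set (1424638_at) read 9.2, 9.42 and 9.53 in ESC and 9.31, 9.56 and 9.52 in EB. The states overlapped, and the difference of 0.08 ± 0.14 was not called (limma adjusted p = 0.766). The second probe set, 1421679_a_at, gave 0.1 ± 0.18.

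Ccng1 was the member with the largest difference in total RNA. Its lead probe set (1420827_a_at) read 10.09, 10.24 and 10.15 in ESC and 11.07, 11.05 and 10.98 in EB. Every EB culture lay above every ESC culture, and the difference was 0.88 ± 0.12 (limma adjusted p = 0.01), kept in all 6 fits that left out 1 culture. The other probe sets, 1450016_at and 1450017_at, differed by 0.5 ± 0.12 (limma adjusted p = 0.0456) and 0.69 ± 0.15 (0.0393), also without overlap. Both of these calls were lost when any single culture was left out (limma adjusted p from 0.0668 to 0.116).

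Among the genes of cell death, Bbc3, which encodes the BH3-only protein PUMA, read 8.35, 8.48 and 8.5 in ESC and 8.11, 8.02 and 8.08 in EB. The states did not overlap, but the difference of -0.37 ± 0.12 was not called (limma adjusted p = 0.102). Trp53inp1 (1416926_at) read 10.42, 10.46 and 10.39 in ESC and 11.14, 11.14 and 11.15 in EB. All EB cultures lay above all ESC cultures, by 0.72 ± 0.11 (limma adjusted p = 0.0156). The call was lost without ESC culture 1 or without any 1 of the EB cultures (limma adjusted p up to 0.0633). The second probe set, 1416927_at, differed by 0.37 ± 0.17 without overlap and was not called (0.207).

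Perp, a membrane protein of desmosomes and an apoptosis effector of p53, read 8.83, 8.44 and 8.33 in ESC and 8.39, 8.11 and 8 in EB. These overlapped, with a difference of -0.37 ± 0.18 (limma adjusted p = 0.243). Zmat3, a zinc-finger protein that binds RNA, read 8.74, 8.63 and 9.07 in ESC and 8.46, 8.23 and 8.13 in EB. The states did not overlap, and the difference of -0.54 ± 0.17 was not called (limma adjusted p = 0.0927).

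**Figure D1:**
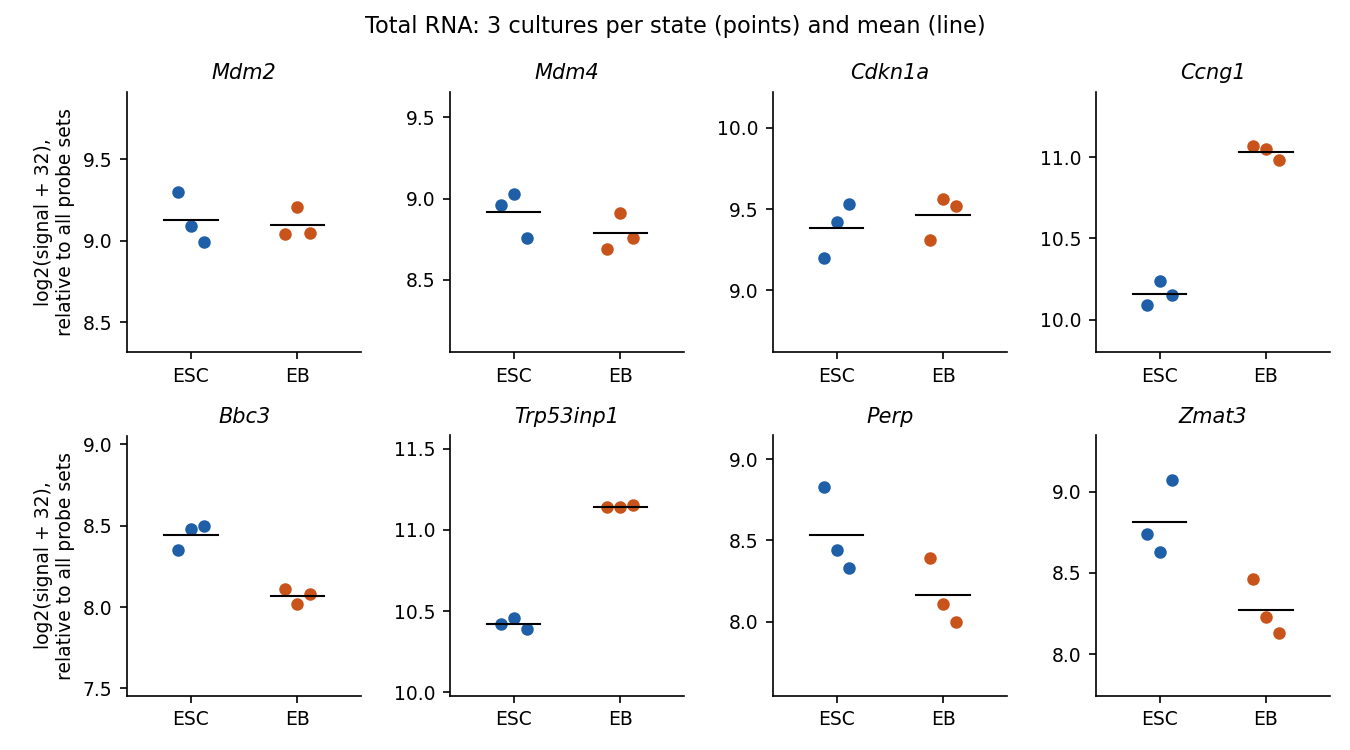
Total RNA level of the lead probe set of each gene in the 3 ESC and 3 EB cultures (points) with the mean (line), in log2(signal + 32) relative to all probe sets; every panel spans the same log2 range. Ccng1 and Trp53inp1 lie higher in every EB culture, Bbc3 and Zmat3 lie lower in every EB culture without being called, and Mdm2, Mdm4, Cdkn1a and Perp overlap.

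On the deposited scale the mean of the spike-in controls lay between 9.432 and 9.78 on all arrays, and arrays were not set equal to each other. There 15 of the 16 probe sets were called, all higher, but so were 73% of all probe sets, 72.7% higher, with a median of 0.85 over all and 1.28 over the members. Ccng1 differed by 2.04 ± 0.16 (lead), 1.7 ± 0.16 and 1.97 ± 0.18, and Trp53inp1 by 1.87 ± 0.16 and 1.46 ± 0.17. Mdm2, Mdm4, Bbc3, Zmat3 and Perp, whose lead probe sets were below 0 relative to all probe sets, were above 0 on this scale, between 0.74 (Zmat3) and 1.25 (Mdm2).

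**Figure D2:**
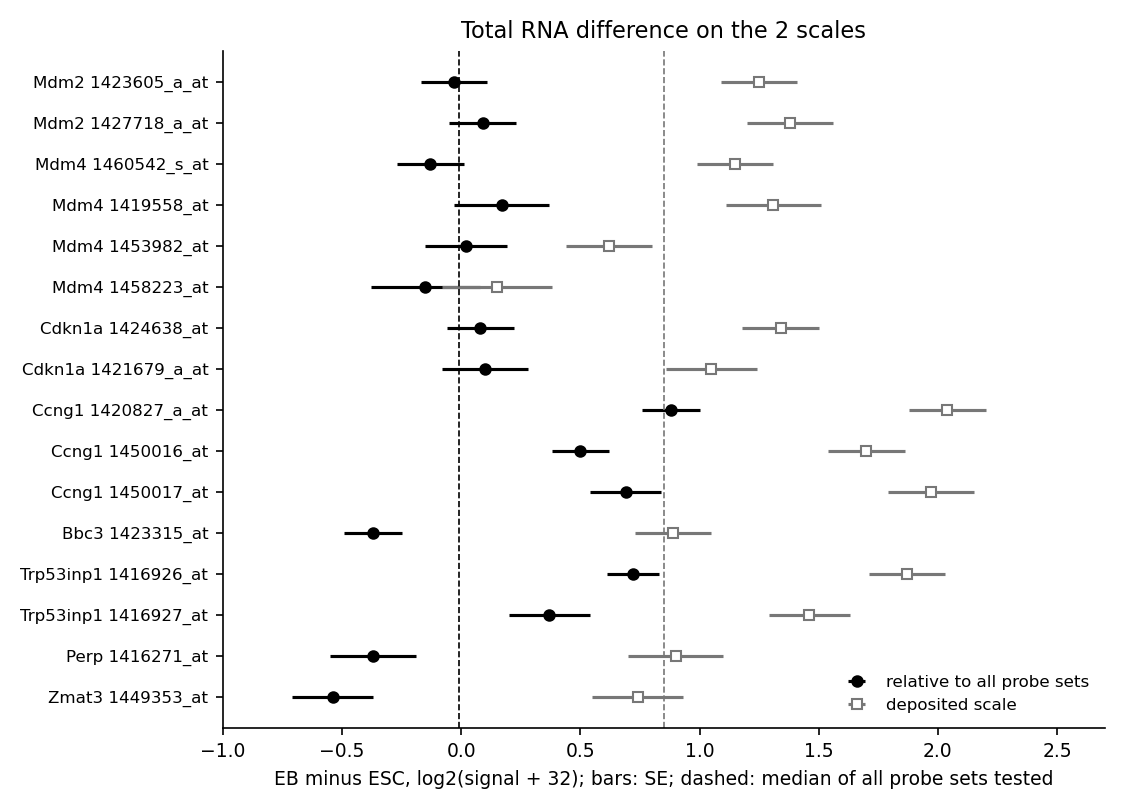
Difference between EB and ESC in total RNA for the 16 member probe sets tested (horizontal axis, log2, with SE bars), relative to all probe sets (filled circles) and on the deposited scale (open squares); dashed lines mark the median over all 26462 probe sets, -0.01 and 0.85. The 3 Ccng1 probe sets and the lead of Trp53inp1 lie to the right of the median on both scales, while Bbc3, Perp and Zmat3 lie left of it or close to it.

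Within the gradient, the EB and ESC arrays of each pool were compared. Relative to all probe sets, Ccng1 was the one gene whose lead probe set was called higher in EB in all 4 pools, whereas Trp53inp1 rose in pools 3 and 4, Cdkn1a in pool 3, and Perp and Zmat3 fell in several pools. Of the 16 member probe sets, 4 were called in pool 1 (3 higher, 1 lower), against 9.52% of all probe sets (4.8% higher, 4.72% lower). In pool 2 there were 5 (4 higher, 1 lower), against 3.87% (1.82% higher, 2.05% lower). In pool 3 there were 9 (6 higher, 3 lower), against 16.5% (8.42% higher, 8.03% lower). In pool 4 there were 5 (3 higher, 2 lower), against 23.1% (12% higher, 11.1% lower). Several of these calls were probe sets of the same gene: the higher calls all came from Ccng1 in pool 1, and from Ccng1 and Cdkn1a in pool 2. By lead probe set, 2, 2, 5 and 4 of 8 were called in pools 1 to 4. The share of probe sets at the lowest value, which was 55.5% ± 4.97 in ESC and 31.4% ± 4.3 in EB of pool 4 (SD, n = 3; exact two-sided permutation p = 0.1), moved with the state, and so did the pluripotency markers, of which 6, 2, 2 and 2 of 8 were called lower in EB in pools 1 to 4 and 0, 0, 1 and 1 higher (Nanog, 0.41 and 0.97). With deposited values 6 and 7 of the 8 were called higher in pools 3 and 4. The part of both in these results was not tested. Scaling on the hybridisation controls ended every member call in the 4 pools, but also nearly every call on the array. Over all 26462 probe sets it left 0 calls in pools 1 and 2. In pool 3 it left 69 higher and 13 lower, and in pool 4 it left 45 and 13. On the deposited scale limma called 0 of 26462 probe sets in pool 1. In pools 2, 3 and 4 that scale gave 3, 11 and 14 member calls, against 2.87%, 44.8% and 69.2% of all probe sets. The lead probe set of Ccng1 in all 4 pools, of Trp53inp1 in pools 3 and 4 and of Cdkn1a in pool 3 lay above 0 under all 5 scalings. All 5 used the same arrays. On the deposited scale the median of all probe sets was itself above 0, at 0.05, 0.36, 0.88 and 0.72 in pools 1 to 4.

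Neither inhibitor had its lead probe set called in any pool. The lead Mdm2 probe set differed by -0.5 ± 0.15 in pool 1 (limma adjusted p = 0.102), where every EB culture lay below every ESC culture, and by 0.07, 0.26 and 0.02 in pools 2 to 4. The second Mdm2 probe set, 1427718_a_at, was not called in any pool either, at 0.1, 0.51, 0.5 and 0.62. In pools 2 to 4 every EB culture of it lay above every ESC culture. The lead Mdm4 probe set had differences from -0.41 (pool 2) to -0.06 (pool 1). A second Mdm4 probe set, 1419558_at, read 7.5, 7.7 and 7.31 in ESC and 7.01, 6.92 and 7.07 in EB of pool 3. The EB cultures were all lower, by -0.51 ± 0.14 (limma adjusted p = 0.0369), a call lost in 5 of 6 fits that left out 1 culture and held without ESC culture 3; on the deposited scale its sign turned (0.7).

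Cdkn1a read 9.39, 8.82 and 9.01 in ESC and 10.15, 9.89 and 9.81 in EB of pool 3. All EB cultures were higher, by 0.88 ± 0.17 (limma adjusted p = 0.00903), and the second probe set rose by 1.05 ± 0.2 (0.00827). Both calls were kept in all 6 fits that left out 1 culture. In pool 2 the lead read 9.63, 9.45 and 9.97 in ESC and 10.86, 10.19 and 10.42 in EB, without overlap but not called (0.81 ± 0.25, limma adjusted p = 0.099). The second probe set was called there, at 1.02 ± 0.2 (0.0236), though only with the EB array that stood apart left out was the call kept among the 6 fits without 1 culture (1.08, 0.0205). In pool 1 the lead differed by -0.06 and in pool 4 by 0.19, neither of them called.

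Ccng1 (1420827_a_at) read 9.37, 9.45 and 9.45 in ESC and 9.98, 10.24 and 10.06 in EB of pool 1. In pool 3 it read 10.17, 10.42 and 10.39 in ESC and 11.29, 11.22 and 11.1 in EB. No culture of one state overlapped the other in either pool, and the differences were 0.67 ± 0.08 and 0.88 ± 0.13 (limma adjusted p = 0.0118 and 0.00274). In pools 2 and 4 they were 0.84 ± 0.19 (0.0444) and 0.59 ± 0.1 (0.0059). The calls in pools 3 and 4 were kept whichever culture was left out. The pool 1 call was lost without ESC culture 2 or 3 (limma adjusted p up to 0.0567), and the pool 2 call in every such fit except the one without EB culture 3 (0.9, 0.0281). Scaled before the offset was added, the lead differed by 0.27, 0.41 and 0.38 in pools 1, 2 and 4 and was not called (limma adjusted p = 0.299, 0.437 and 0.0576). Median centring also ended the calls in pools 1 and 2 (0.404 and 0.258). So did the replicate number taken as a block. The other 2 Ccng1 probe sets rose in pools 1, 2 and 3 by 0.64 to 1.25, and in pools 1 and 2 each of these calls was lost in 5 of 6 fits without 1 culture. In pool 4, 1450017_at rose by 0.89 ± 0.18 and 1450016_at was at 0.29 ± 0.11, not called.

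Trp53inp1 (1416926_at) read 10.31, 10.09 and 10.41 in ESC and 11.52, 11.49 and 11.35 in EB of pool 3. In pool 4 it read 9.71, 9.8 and 9.7 in ESC and 10.66, 10.51 and 10.47 in EB. EB cultures lay above ESC cultures in both, by 1.18 ± 0.14 and 0.81 ± 0.09 (limma adjusted p = 0.000881 and 0.00111), and both calls were kept whichever culture was left out. In pools 1 and 2 the states overlapped, at 0.44 ± 0.18 and 0.37 ± 0.23. The second probe set was not called in any pool (-0.2 to 1.09), and in pool 3 it read 7.62, 6.06 and 6.24 in ESC, so that 1 ESC culture stood near the EB values of 7.93, 7.65 and 7.59. Bbc3 was not called in any pool either, with differences from -0.31 (pool 2) to 0 (pool 3).

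Perp read 7.85, 8.04 and 7.99 in ESC and 6.49, 6.72 and 7.19 in EB of pool 1. In pool 4 it read 7.83, 8 and 8.04 in ESC and 6.9, 7.03 and 6.79 in EB. Every EB culture was lower in both pools, by -1.16 ± 0.19 and -1.05 ± 0.1 (limma adjusted p = 0.0217 and 0.00072). Perp was called in pool 3 as well (-0.52 ± 0.13, 0.0244) and not in pool 2 (-0.73 ± 0.28, 0.175). The pool 4 call was kept in all 6 fits without 1 culture, while the pool 1 call held only without EB culture 1 or 3 and the pool 3 call only without ESC culture 2. With deposited values Perp stayed below 0 in pools 1 and 2 (-1.15 and -0.26) and was above 0 in pools 3 and 4 (0.76 and 0.15).

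Zmat3 read 8.66, 8.73 and 8.62 in ESC and 7.85, 7.76 and 6.92 in EB of pool 2. In pool 3 it read 9.32, 9.29 and 9.57 in ESC and 8.71, 8.47 and 8.68 in EB. EB cultures were lower throughout, by -1.16 ± 0.27, -0.77 ± 0.14 and, in pool 4, -0.51 ± 0.11 (limma adjusted p = 0.0446, 0.00595 and 0.0151). The lowest EB value of pool 2 came from the array that stood apart, and without it the difference was -0.88 (0.0323), while leaving out any other culture of that pool ended the call. The pool 3 call was kept in all 6 such fits, and the pool 4 call was lost without ESC culture 2, EB culture 2 or EB culture 3. With deposited values Zmat3 was at -0.69 in pool 2 and turned to 0.55 and 0.81 in pools 3 and 4.

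**Figure D3:**
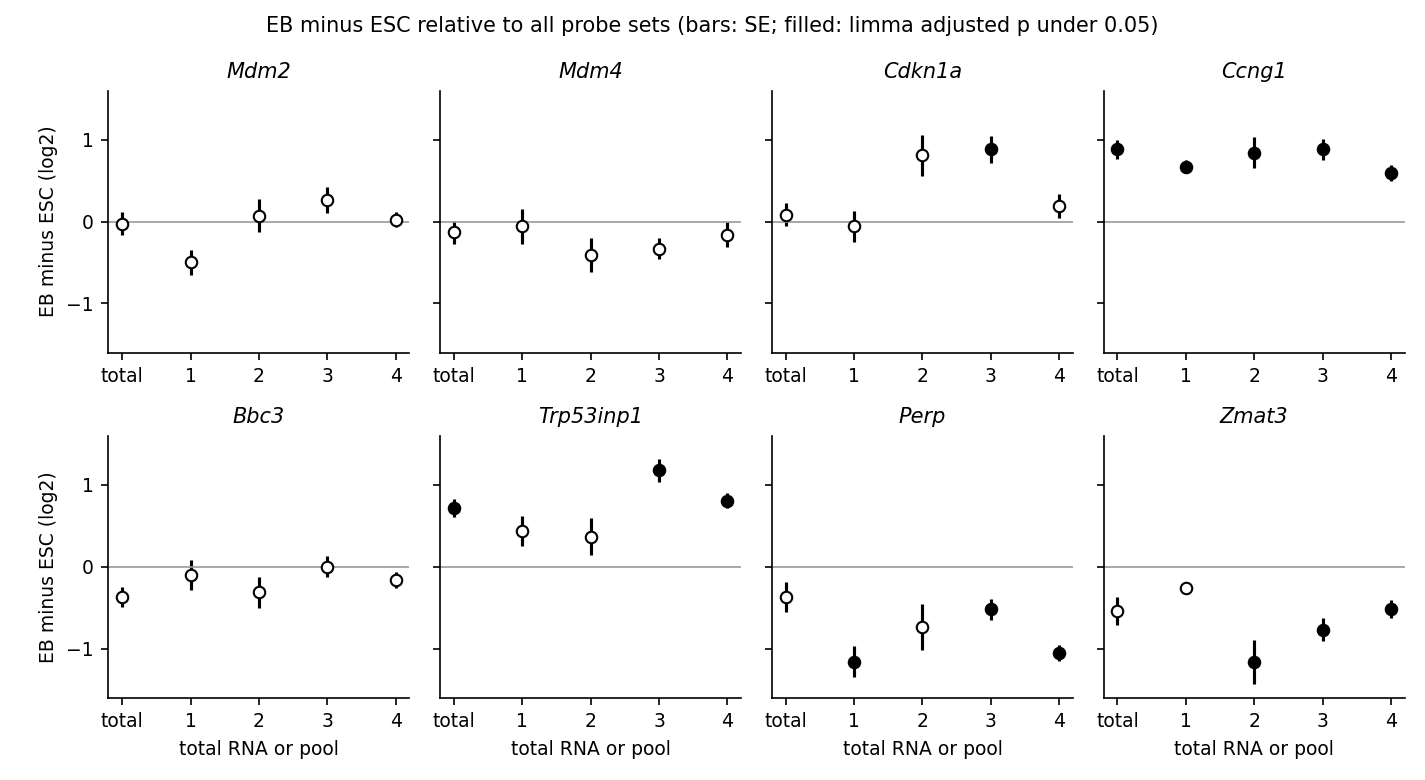
Difference between EB and ESC (vertical axis, log2, relative to all probe sets, with SE bars) of each gene's lead probe set in total RNA and in pools 1 to 4; filled points have a limma adjusted p under 0.05. Ccng1 is filled and above 0 throughout, Trp53inp1 is highest in pool 3 (1.18), Cdkn1a is filled in pool 3 alone, and Perp and Zmat3 lie below 0 throughout, though on the deposited scale both are above 0 in total RNA and in pools 3 and 4.

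The spread of each mRNA over the gradient was then set out on values normalized over the 24 pool arrays together. In ESC, the lead probe sets of Mdm2, Cdkn1a, Ccng1, Trp53inp1 and Perp were highest in pool 1 in all 3 cultures. On the deposited scale this held in 2 of 3 cultures for Cdkn1a and 1 of 3 for Mdm2, Trp53inp1 and Perp. Their other cultures, and all 3 of Ccng1, were highest in pool 2 there. Mdm4, Bbc3 and Zmat3 were highest in pool 3 or 4, though with deposited values Mdm4 and Bbc3 were highest in pool 2. The lead Cdkn1a probe set averaged 10.19 ± 0.26, 9.17 ± 0.24, 8.6 ± 0.28 and 8.54 ± 0.12 in ESC pools 1 to 4 (SD, n = 3), and 10.14 ± 0.24, 9.92 ± 0.32, 9.46 ± 0.17 and 8.73 ± 0.31 in EB. On this scale the means ran downward from pool 1 to pool 4 in both states, but with deposited values the EB cultures were highest in pool 2 or 3. The second Cdkn1a probe set had another profile, at 5.81, 6.99, 6.73 and 6.26 in ESC and 6.93, 7.94, 7.66 and 6.83 in EB, with its highest mean in pool 2. The second Mdm2 probe set also had its highest mean in pool 2, at 8.3, 8.68, 8.46 and 8.01 in ESC and 8.41, 9.15, 8.94 and 8.64 in EB. Trp53inp1 averaged 10.68 ± 0.05, 9.93 ± 0.11, 9.78 ± 0.16 and 9.84 ± 0.06 in ESC and 11.1 ± 0.34, 10.26 ± 0.31, 11 ± 0.11 and 10.75 ± 0.11 in EB, so that in EB pool 3 stood above pool 2 where in ESC it did not. Zmat3 averaged 7.84 ± 0.1, 8.22 ± 0.06, 8.91 ± 0.15 and 8.79 ± 0.17 in ESC and 7.54 ± 0.07, 7.15 ± 0.48, 8.17 ± 0.12 and 8.26 ± 0.1 in EB. Its pools 3 and 4 were above its pools 1 and 2 in every culture of both states. Every array was made from the same mass of RNA, so these values compare signals in equal amounts of RNA, not the amounts of an mRNA in the gradient. The mean 3' to 5' ratio of Actb was also lower in pools 3 and 4 than in pools 1 and 2 of both states, and its part in these profiles was not tested.

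**Figure D4:**
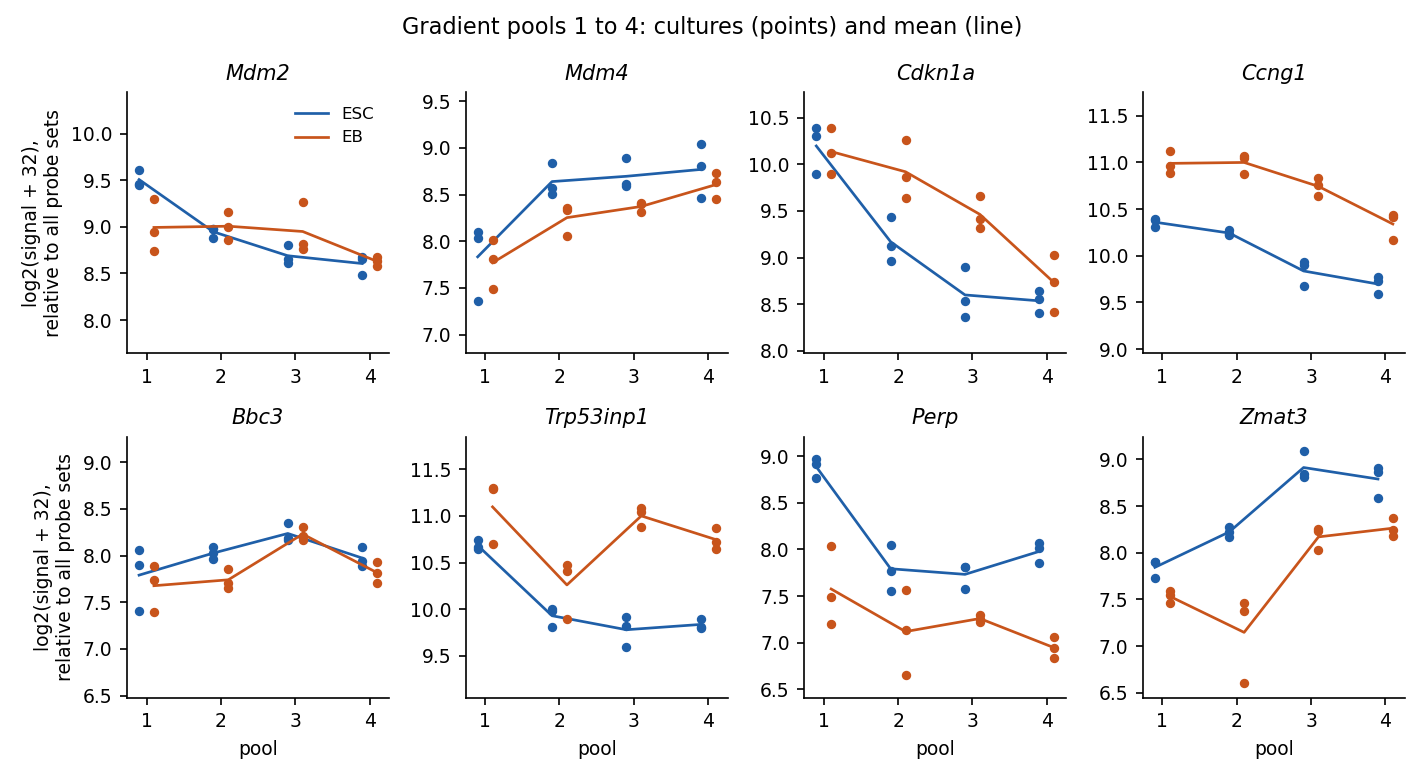
Level of each gene's lead probe set in pools 1 to 4 of ESC and EB, cultures as points and means as lines, in log2(signal + 32) relative to all probe sets over the 24 pool arrays; panels span the same log2 range. Cdkn1a runs down from pool 1 in both states (on the deposited scale EB is highest in pool 2 or 3), Zmat3 is higher in pools 3 and 4, and the EB line of Trp53inp1 rises from pool 2 (10.26) to pool 3 (11) where the ESC line does not.

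To sum up each culture in 1 number, the pool ratio was taken as the mean of pools 3 and 4 minus the mean of pools 1 and 2. Trp53inp1 was the only member whose ratio was called different between the states, by 0.69 ± 0.16 (limma adjusted p = 0.03; 1 of 16 probe sets, higher, against 6.35% of all, 2.75% higher and 3.6% lower). Its ratio was -0.51, -0.61 and -0.37 in the ESC cultures and 0.39, 0.03 and 0.17 in the EB cultures. Every ESC culture was below 0 and every EB culture above it, and the difference lay above 0 under all 5 scalings. The median difference of all probe sets was also above 0 on the deposited scale (0.61) and with hybridisation controls (0.16). With hybridisation controls the Trp53inp1 difference was not called (limma adjusted p = 0.0868), but neither was any other of the 26462 probe sets. The call was lost without any 1 of the ESC cultures or without EB culture 1 (limma adjusted p up to 0.145), and it was kept without EB culture 3, whose pool 2 array stood apart (0.7, 0.0475). It was also lost with pool 4 minus pool 1 (0.5, 0.269), with the slope over the pools, with offset 16 or with no filter. The second Trp53inp1 probe set ran from -1.29 to -0.11 in ESC and from -0.91 to 0.12 in EB, with a difference of 0.57 ± 0.32 that was not called (0.318).

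Mdm2 had ratios of -0.56, -0.58 and -0.6 in ESC and -0.23, -0.19 and -0.22 in EB. The states did not overlap, but the difference of 0.37 ± 0.15 was not called (limma adjusted p = 0.161). The lead Cdkn1a probe set did not overlap either, at 0.18 ± 0.15 (0.534). The second Mdm2 probe set overlapped, at 0.26 ± 0.19 (0.452). The remaining lead probe sets overlapped, with differences from -0.02 (Mdm4) to 0.24 (Perp), none of them called. Deposited values gave 15 of 16 probe sets a higher ratio in EB, where 55.2% of all probe sets were called and 55% were higher.

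Within ESC, 10 of 16 member probe sets had a ratio that differed from 0, 8 of them below it and 2 above. This stood against 25.4% of all probe sets called, 12.3% below and 13.1% above. By lead probe set, 7 of 8 were called, 5 below 0 and 2 above. The median member ratio was -0.38, against -0.02 over all. Cdkn1a was lowest at -1.11 ± 0.11 (limma adjusted p = 2.41e-05), from cultures at -1.02, -1.13 and -1.19. Its second probe set went against this, at 0.09 ± 0.13, with cultures at 0.47, 0 and -0.2. The 3 Ccng1 probe sets were at -0.54, -0.7 and -0.58, the lead Mdm2 probe set at -0.58 ± 0.1, both Trp53inp1 probe sets at -0.5 and -0.87, and Perp at -0.48 ± 0.11, all called. The second Mdm2 probe set was not called (-0.25 ± 0.13), with cultures at 0.09, -0.56 and -0.28. Zmat3 (0.82 ± 0.12, limma adjusted p = 0.000404) and the lead Mdm4 probe set (0.5 ± 0.12, 0.0085) were above 0, and Bbc3 was not called (0.2 ± 0.12). Scaling on the hybridisation controls, which moved the median of all probe sets to 0.38, ended or turned every call below 0: Cdkn1a stayed below 0 (-0.25, adjusted p = 0.358), as did the second Trp53inp1 probe set (-0.13), and the others were above it. Over all 26462 probe sets that scaling called 10878 above 0 and 44 below. Deposited values gave 9 member calls within ESC, 8 of them below 0, against 19.5% of all probe sets.

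Within EB, 6 of 16 probe sets were called, 4 below 0 and 2 above, against 36.1% of all, 16.3% below and 19.8% above. By lead probe set, 4 of 8 were called, 2 on each side of 0. Cdkn1a was at -0.93 ± 0.11 (limma adjusted p = 3.04e-05) from cultures at -0.98, -0.97 and -0.85, and the 3 Ccng1 probe sets at -0.46, -1.02 and -0.42. The second Cdkn1a probe set was not called (-0.19 ± 0.13, limma adjusted p = 0.294). Zmat3 was at 0.87 ± 0.12 (0.000123) from cultures at 0.78, 0.68 and 1.16, and Mdm4 at 0.48 ± 0.12 (0.00732). Zmat3 and the lead Mdm4 probe set were above 0 in both states and stayed there under all 5 scalings. With hybridisation controls the median of all probe sets was itself 0.38 within ESC and 0.6 within EB. The Mdm4 call within ESC was lost on the deposited scale (0.35, limma adjusted p = 0.121) and without culture 1 or 3, and that within EB without culture 3. The other 3 Mdm4 probe sets were not called, at -0.2, -0.04 and -0.28 in ESC and -0.24, -0.02 and 0.01 in EB. The 4 probe sets called below 0 did not keep their sign under all 5 scalings. On the deposited scale, where 12 members and 56.8% of all probe sets were called, Cdkn1a was at 0.08 and the lead Ccng1 probe set at 0.43. Ccng1 1450016_at stayed below 0 there (-0.1) and was above 0 with hybridisation controls (0.32).

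**Figure D5:**
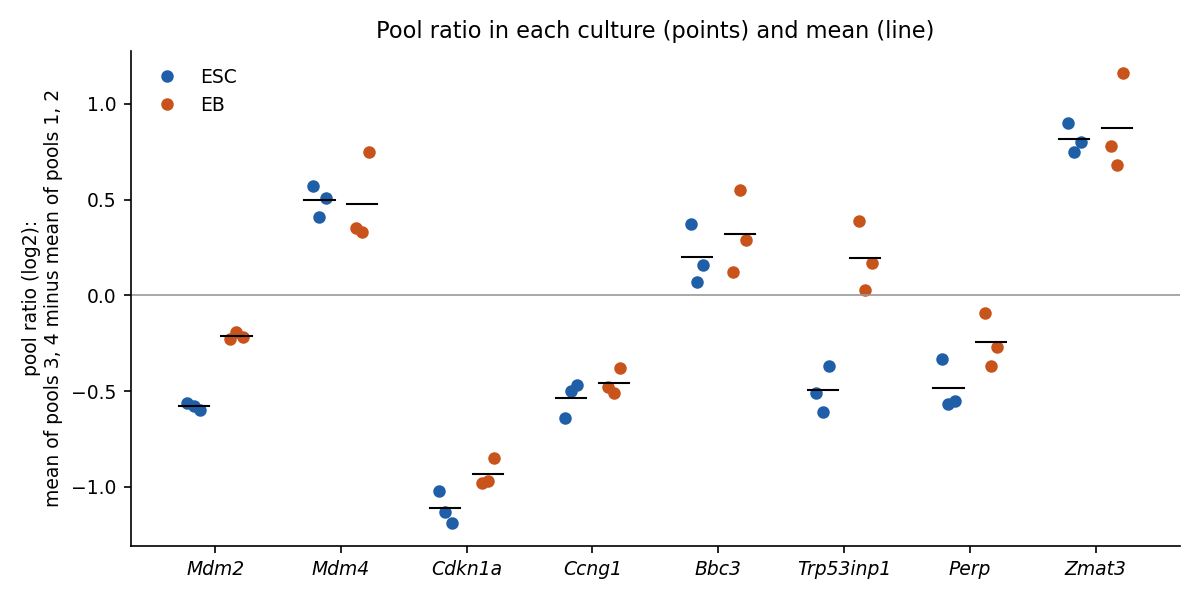
Pool ratio (vertical axis, log2: mean of pools 3 and 4 minus mean of pools 1 and 2, relative to all probe sets) of each gene's lead probe set in the 3 ESC and 3 EB cultures (points) with the mean (line). Trp53inp1 lies below 0 in all ESC cultures and above 0 in all EB cultures, Cdkn1a lies near -1.11 in ESC and -0.93 in EB, and Zmat3 and the lead Mdm4 probe set lie above 0 in both states.

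Other genes of the pathway were described as lists, each gene by its probe set of highest mean. In total RNA 3 of them were called, where 7.28% of all probe sets were. None of 9 other arrest targets, 11 repair, redox and metabolism targets, 5 genes of the p53 family and its feedback, or 19 upstream kinases and regulators was called in either direction, with list medians of 0.28, 0.23, -0.01 and 0. Of 11 other cell death targets, 1 was called, Trp53i11 (-0.98 ± 0.23, limma adjusted p = 0.0494). Of 12 Bcl-2 family genes outside the members, the death effector Bak1 fell (-0.9 ± 0.17, 0.0253; 0.22 on the deposited scale) and the survival gene Mcl1 rose (0.53 ± 0.12, 0.0402).

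In the pools more of them were called. Of the 9 other arrest targets, 1, 2, 4 and 3 were called higher in EB in pools 1 to 4 and none lower, where 4.8%, 1.82%, 8.42% and 12% of all probe sets were called higher. The list medians were 0.36, 0.33, 0.51 and 0.36, against 0, 0.01, -0.01 and -0.01 over all probe sets. Btg2, an antiproliferative gene, rose in pools 1 and 2 (1.09 and 0.97). Ccng2, a cyclin related to Ccng1, rose in pools 2, 3 and 4 (1, 0.82 and 0.51), and the polo-like kinase gene Plk2 rose in pools 3 and 4 (0.64 and 0.74). Of the 11 repair, redox and metabolism targets, 1, 0, 1 and 2 were called higher and 1, 0, 0 and 1 lower. The list medians were 0.04, -0.04, -0.05 and 0.17, and 4.72%, 2.05%, 8.03% and 11.1% of all probe sets were called lower. Rrm2b, the p53-inducible ribonucleotide reductase subunit, rose in pools 3 and 4 (0.75 and 0.86). Triap1 rose in pool 1 (0.64) and Pcna in pool 4 (0.59). Sesn2 fell in pool 1 (-0.37) and Rps27l in pool 4 (-1.09, but 0.21 on the deposited scale). Of the 5 genes of the p53 family and its feedback, none was called in pools 1 to 3. In pool 4, 1 was called higher, Ppm1d (0.7), and 1 lower, Cop1 (-0.45, but 0.9 on the deposited scale).

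Among the 19 upstream genes, 3, 5, 9 and 4 were called lower in EB in pools 1 to 4, and 1, 0, 0 and 4 higher. Over all probe sets, 4.72%, 2.05%, 8.03% and 11.1% were called lower and 4.8%, 1.82%, 8.42% and 12% higher. The list medians were -0.24, -0.55, -0.4 and -0.11. Usp7, a deubiquitinase of Mdm2 and p53, fell in pools 1, 2 and 3 (-1.02, -1.26 and -1.25). Ep300, an acetyltransferase of p53, fell in all 4 pools (-0.94, -1.05, -0.95 and -0.76), and the damage kinase Atm fell in pools 1 and 3 (-0.53 and -0.83). Trim28 fell in pool 2 (-1.19). In pool 4, Trp53bp1 fell (-0.99, but 0.35 on the deposited scale) and Sirt1 rose (0.82). With deposited values none of the 19 was called lower in any pool, and 7 and 17 were called higher in pools 3 and 4. Of all probe sets, 44.8% and 69.2% were called in pools 3 and 4 on that scale. On that scale Usp7, Ep300 and Atm stood at 0.06, 0.33 and 0.28 in pool 3, and Ep300 was called higher in pool 4 (0.56, limma adjusted p = 0.00953).

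Of the 11 death targets, 1, 0, 2 and 1 were called higher in pools 1 to 4 and 1, 0, 0 and 2 lower. Of the 12 Bcl-2 family genes, 0, 0, 3 and 1 were called higher and 3, 0, 0 and 3 lower. Over all probe sets, 4.8%, 1.82%, 8.42% and 12% were called higher in pools 1 to 4, and 4.72%, 2.05%, 8.03% and 11.1% lower. Bid, Bak1 and Bcl2l11 fell in pool 1 (-0.67, -0.53 and -0.43), and Bok and Bak1 fell in pool 4 (-0.84 and -0.67; 0.34 and 0.37 on the deposited scale). Pmaip1, which encodes NOXA and stands in both lists, and Mcl1 rose in pool 3 (0.75 and 0.74). Apaf1, the apoptosome scaffold, rose in pool 4 (0.82), where Siva1 fell (-1.16; 0.17 on the deposited scale). The pool ratio was higher in EB for Apaf1 (0.76 ± 0.16, limma adjusted p = 0.0183) and for Bcl2l11, which encodes BIM (0.9 ± 0.22, 0.0357). It was lower for Siva1 (-0.6, 0.049; 0.66 on the deposited scale and 0.01 with median centring) and for the kinase gene Hipk2 (-0.6, 0.0443; 0.32 on the deposited scale).

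The pool ratio of the upstream genes was called above 0 in 10 of 19 and below in 2 within ESC, where 13.1% and 12.3% of all probe sets were. Within EB it was above 0 in 10 and below in 0, where 19.8% and 16.3% were. The list medians were 0.33 and 0.34. With deposited values 5 were above and 3 below within ESC (median 0.02), and 17 above and 0 below within EB (median 1.11). Of all probe sets, 19.5% were called there within ESC (median -0.14) and 56.8% within EB (median 0.42). Within ESC the kinase genes Atr (1.08) and Hipk2 (1.05) had the largest called ratios of this list. Trim28, a corepressor that works with Mdm2, was at 0.97 in ESC and 1.28 in EB. Among the repair and metabolism targets, Pcna, the replication clamp, was at 1.04 and 1.44, and the ribosomal protein gene Rps27l lay on the other side at -1.24 and -1.91. Trim28, Pcna and Rps27l kept their sign under all 5 scalings in both states. With hybridisation controls the median of all probe sets was itself 0.38 within ESC and 0.6 within EB.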

How the data were processed

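RNA of 3 ESC and 3 EB cultures, total and in 4 gradient pools, was measured on 30 Affymetrix arrays. The authors deposited log2 signals; MAS5 and affy are named in the submitters' processing notes, with no version or setting. Spike-in means lay close together on all arrays; the scaling step behind this is not given in the sources used here. The number of arrays limits the precision. Each value was raised from log2 to a linear signal, and log2(signal + 32) was computed. Controls and probe sets with several symbols were left out, the 40% with the lowest mean were dropped, and arrays of a fit were quantile-normalized. The test, first tested on simulated data, was limma's moderated one (version 3.58.1, R 4.3.3; lmFit, then eBayes). It was two-sided, p-values were adjusted by Benjamini and Hochberg over 26462 probe sets, and the threshold was 0.05. Single array values were compared with exact permutation tests, which with 3 against 3 cannot go below 0.1.

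Named were all member probe sets and, per list and fit, some of the up to 3 called genes of the largest change. The members and lists were chosen with earlier results of these data known. Genes most like Trp53 could not be sought, since Trp53 had no single-symbol probe set here. Probe set symbols came from the array's annotation (34945 with 1 symbol, 932 with several, 9160 with none). Trp53inp1, Zmat3 and Perp were not in the promoter table.

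On the scale of the fits, same-numbered cultures did not deviate together in every pair, so the numbers were not taken as pairs. On the deposited scale they did in pools 1, 2 and 3 (correlations of 0.11 to 0.53). The lowest value of a pool array was also shared by number. It was 3.8, 2.93 and 3.35 for numbers 1, 2 and 3 in every pool of both states. The labels do not say what arrays of the same number share, and fits with the number as a block are given at the end. Alternatives were other scalings, offsets and filters, 1 probe set per gene, limma's trend, the replicate number as a block, each culture left out, and other summaries of the pools.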

Additional observations from a re-analysis of the deposited data

Results flagged for a closer look

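The pool ratio of Trp53inp1 (1416926_at) differed between EB and ESC by 0.69, with ESC cultures at -0.51, -0.61 and -0.37 and EB cultures at 0.39, 0.03 and 0.17. It stands here because the test of the difference between the states passed the threshold (limma adjusted p = 0.03). Its adjusted p ranged from 0.0407 to 0.145 over the 6 fits that left out 1 culture.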

How the results depend on the processing

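Of 2120 values of single member probe sets under an alternative, 1794 kept direction and side of the threshold, 188 lost a call, 85 gained one and 53 turned sign where either value was called. The cause of these shifts was not tested. With 3 cultures a state and many pool arrays at their lowest value (18.39% to 59.35% of probe sets), low probe sets are the least certain.

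Counts of called member probe sets moved as follows, with counts over all 26462 probe sets given for the scalings. Total RNA gave 15 on the deposited scale (73% of all probe sets), 2 with offset 16, 2 with no filter and 0 with the replicate block. The pool ratio between states gave 15 on the deposited scale and 6 with median centring. It gave 0 with hybridisation controls, offset 16, no filter, pool 4 minus pool 1 or the slope. Over all probe sets the deposited scale called 55.2%, median centring 4352 higher and 3815 lower, and hybridisation controls 0. Within ESC hybridisation controls gave 4. Within EB they gave 13 and the deposited scale 12. Over all probe sets hybridisation controls called 10878 above 0 and 44 below within ESC, and 15884 and 298 within EB. The deposited scale called 56.8% within EB. Pool 1 gave 0 on the deposited scale, with hybridisation controls and with the block, and 1 with median centring or no filter. Over all probe sets the deposited scale and hybridisation controls called 0 there, and median centring 292 higher and 356 lower. Pool 2 gave 3 on the deposited scale, 0 with median centring, 1 when scaled before the offset, 0 with hybridisation controls, 2 with offset 16, 3 with no filter and 2 with the block. Over all probe sets pool 2 had 2.87% called on the deposited scale and 0 with hybridisation controls. Median centring called 193 higher and 424 lower there, and scaling before the offset 246 and 948. Pool 3 gave 0 with hybridisation controls, against 69 higher and 13 lower over all probe sets. In pool 4 the deposited scale called 69.2% of all probe sets. Median centring called 6111 higher and 10024 lower there, and hybridisation controls 45 and 13. Of the members, pool 4 gave 14 on the deposited scale, 10 with median centring, 0 with hybridisation controls and 3 with no filter. Leaving out 1 culture gave 1 to 2 (total RNA), 0 to 1 (pool ratio), 6 to 9 (within ESC), 5 to 6 (within EB), 0 to 5 (pool 1), 0 to 5 (pool 2), 7 to 8 (pool 3) and 3 to 7 (pool 4).

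Turned signs on the deposited scale were, in total RNA, Mdm2 1.25, Mdm4 1.15, Bbc3 0.89, Zmat3 0.74 and Perp 0.9. In pool 3 they were Mdm4 1.01 and 0.7 (1419558_at), Bbc3 1.32, Zmat3 0.55 and Perp 0.76. In pool 4 they were Mdm4 1.17, 0.83 (1419558_at) and 0.54 (1453982_at), Bbc3 1.13, Zmat3 0.81 and Perp 0.15. In the pool ratio between states they were Mdm4 1.08 and 0.71 (1419558_at), Cdkn1a 1421679_a_at 0.7 and Ccng1 1450016_at 0.81. Within EB they were Mdm2 0.82, Mdm4 1419558_at 0.37, Cdkn1a 0.08 and 0.54, Ccng1 0.43 and 0.6 (1450017_at), Trp53inp1 1416927_at 0.52 and Perp 0.59. With median centring within EB they were Mdm2 0.35 and Ccng1 1450017_at 0.13. With hybridisation controls within EB they were Mdm2 1.18, Mdm4 0.65 (1419558_at) and 0.44 (1453982_at), Cdkn1a 0.47 and 0.84, Ccng1 0.84, 0.32 and 0.98, Trp53inp1 1416927_at 0.72 and Perp 0.84. Within ESC they were Mdm2 0.31, Mdm4 1419558_at 0.52, Ccng1 0.32, 0.16 and 0.28, Trp53inp1 0.35 and Perp 0.39.

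With the replicate number as a block on the main scale, where the pair correlations ran from -0.02 to 0.41, the calls numbered 0, 1, 0, 2, 10 and 5 in total RNA, the pool ratio and pools 1 to 4. On the deposited scale with the replicate block, an alternative chosen after seeing the data, pools 1, 2 and 3 had 0, 5 and 15 calls, and in pool 3 Mdm4 (1.01, 0.7 and 0.52), Bbc3 (1.32), Zmat3 (0.55) and Perp (0.76) turned sign.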
